A study of Caenorhabditis elegans with 32 samples.

Results

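The F3 generation of the hrde-1 mutant was represented by 4 of the 32 small RNA libraries of the series, taken by their library labels: 2 libraries of the hypoxia line and 2 of normoxia. The worms were Caenorhabditis elegans hrde-1 mutants, collected whole and labelled F3, and the labels give no allele name. In the hypoxia treatment, larvae of the L4 stage spent 16 hours in 0.1% oxygen at 20 °C and then went back to ambient oxygen. The labels do not say which generation of a hypoxia line was exposed, so a library labelled F3 and hypoxia is called the hypoxia line here and no exposure of the F3 worms themselves is assumed. The closest comparison groups were the 4 F3 wild-type (WT) libraries, hypoxia line and normoxia, and the 8 F1 and F2 hrde-1 libraries, hypoxia line and normoxia, each group having 2 libraries. Nothing in the labels says that the 2 libraries of a group came from separate cultures. Every p-value therefore measures only spread between libraries, which may be technical. The main test pools that spread over all 16 groups. Whole-worm RNA cannot tell fewer cells of a type apart from less RNA per cell.

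HRDE-1 is an Argonaute protein of germline nuclei. It binds 22G RNAs, which are antisense small RNAs that RNA-dependent RNA polymerases copy from target transcripts, and carries the silencing of those targets from parent to offspring. Piwi-interacting RNAs (piRNAs, bound by the Argonaute PRG-1) mark transcripts for 22G RNA production, microRNAs (miRNAs, bound by ALG-1 and ALG-2) repress messenger RNAs by pairing through their seed, and small nucleolar RNAs (snoRNAs) guide chemical modification of ribosomal RNA. A worm without HRDE-1 still makes all of these classes, and other Argonautes bind them.

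Each class was counted in its own table and scaled within that class, so a value in CPM, the scaled count relative to the total of the class, is a share of the class and not an amount per worm. The F3 hrde-1 libraries held 746812 to 1704956 22G counts, 1484745 to 3464252 miRNA counts, 215629 to 358765 piRNA counts and 94194 to 148348 snoRNA counts. The snoRNA class made up 3.43% and 5.72% of the sum of the 4 classes in the hypoxia line, against 1.92% and 1.78% in normoxia. Both hypoxia-line libraries lay above both normoxia libraries, and in F3 WT the order was the other way round, with 1.70% and 1.76% in the hypoxia line and 2.28% and 2.38% in normoxia. A comparison of 2 against 2 libraries cannot go below p = 0.3333 in a two-sided exact permutation test, which is the value found here.

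The genotype labels were checked with genes whose 22G RNAs separated hrde-1 from WT in the P0 to F2 libraries. On a scale where the P0 to F2 hrde-1 libraries stand at 0 and the WT libraries at 1, the 410 genes that were higher in WT placed the hypoxia line at -0.10 and -0.14 and normoxia at -0.11 and -0.27. The 436 genes that were lower in WT placed the hypoxia line at 0.15 and 0.15 and normoxia at 0.03 and 0.17, while the F3 WT libraries stood between 0.94 and 1.08 on both sets. All 4 libraries were on the mutant side. Counts over the hrde-1 gene itself (271 and 245 CPM in the hypoxia line, against 257 and 327 CPM in normoxia; log2 fold change -0.18 ± 0.19 SE, edgeR adjusted p = 0.563) say nothing about the mutation, since they are small RNAs antisense to it.

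The 2 libraries of each F3 hrde-1 group differed from each other more than the pairs of most other groups. The biological coefficient of variation, which is the relative spread between a pair beyond counting noise, was 0.684 in the hypoxia line and 1.465 in normoxia for 22G RNAs, against 0.0946 to 0.668 in the other 14 groups. For piRNAs it was 1.19 in the hypoxia line and 2.0 in normoxia, against 0.0822 to 1.39 elsewhere. The miRNA pairs had 0.614 in the hypoxia line and 1.09 in normoxia (0.0819 to 0.913 elsewhere), and the snoRNA pairs had 0.423 in the hypoxia line and 0.650 in normoxia (0.102 to 0.467 elsewhere). The normoxia pair was thus the widest of all 16 groups in every class. The test used here, edgeR's quasi-likelihood test with Benjamini-Hochberg adjustment over all 32 libraries, shares 1 estimate of the spread per feature across groups, and so counts of calls are given beside those of a limma-voom fit in which each group has its own weight and those of an edgeR fit to the 4 libraries alone.

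**Figure D1:**
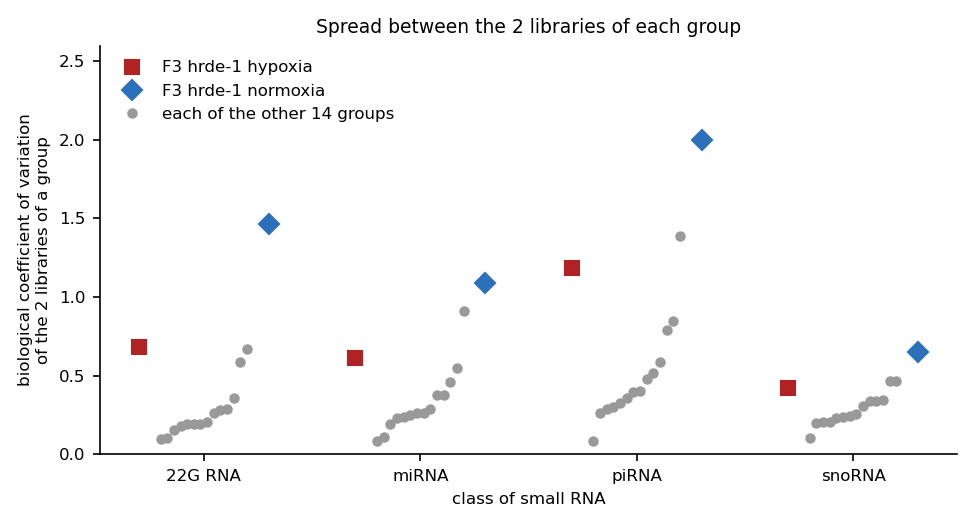
Biological coefficient of variation between the 2 libraries of a group (y axis, no unit) for each small RNA class (x axis). Red squares are the F3 hrde-1 hypoxia line, blue diamonds F3 hrde-1 normoxia and grey dots the other 14 groups. The normoxia pair is the most spread in every class, at 1.465 for 22G RNAs and 2.0 for piRNAs.

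Features that were abundant in the earlier generations were missing from F3 hrde-1 libraries, and more so in normoxia. Of the 4841 genes with at least 20 CPM of 22G RNA over the 12 P0 to F2 hrde-1 libraries, 45 and 83 had no count in the hypoxia-line libraries, against 220 and 493 in the normoxia libraries. The genes without a count in both libraries numbered 22 in the hypoxia line and 86 in normoxia. Among 2398 piRNAs with at least 100 CPM in the same 12 libraries, 106 and 81 were listed at 0 in the hypoxia line, against 359 and 588 in normoxia. The piRNA table holds no value between 0 and 5 in these libraries, so a piRNA listed at 0 may have had a few reads. F3 WT libraries lacked such features too. The 12 earlier libraries set the levels, so a lower share at 0 in them follows in part from that choice. For 22G genes of 50 to 100 CPM in the earlier hrde-1 libraries, 0.563% and 0.804% were at 0 in the hrde-1 hypoxia line and 1.29% and 4.18% in hrde-1 normoxia, and 2.33% and 0.965% were at 0 in the F3 WT hypoxia line and 0.723% and 0.643% in F3 WT normoxia. For piRNAs of 100 to 200 CPM the F3 WT hypoxia line had 15.3% and 3.35% at 0 and F3 WT normoxia 1.02% and 3.16%, so 1 WT hypoxia-line library lay above both hrde-1 hypoxia-line libraries.

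**Figure D2:**
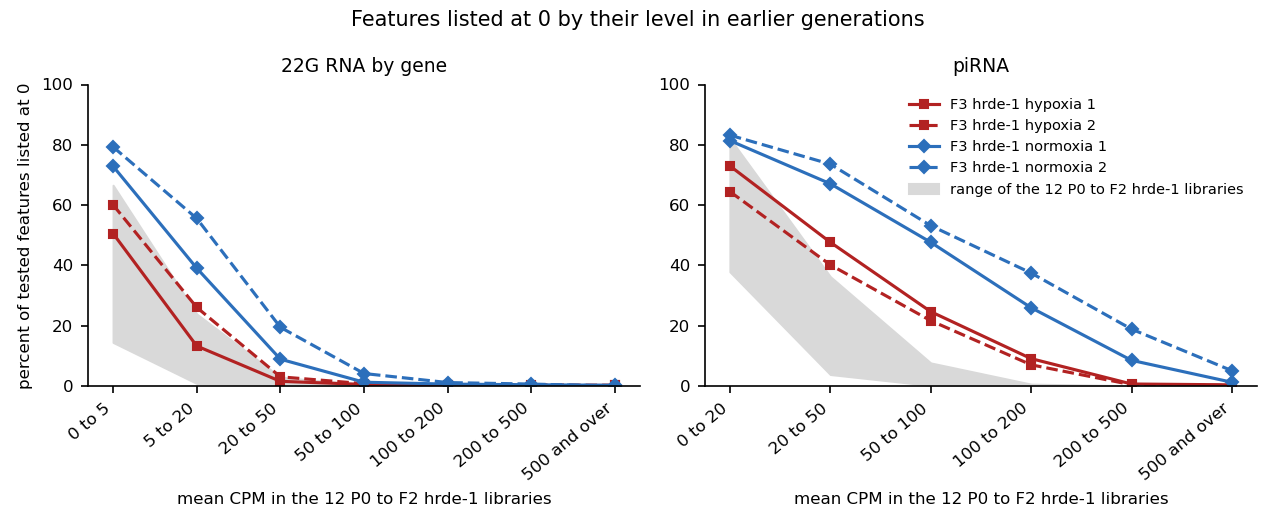
Share of features listed at 0 (y axis, percent) against their mean level in the 12 P0 to F2 hrde-1 libraries (x axis, bins of CPM), for 22G RNAs and piRNAs. Red squares are the 2 F3 hrde-1 hypoxia-line libraries, blue diamonds the 2 F3 hrde-1 normoxia libraries, and the grey band spans the 12 earlier libraries. For piRNAs of 100 to 200 CPM, 9.12% and 7.07% were at 0 in the hypoxia line, against 26.0% and 37.5% in normoxia and 0.0% to 0.651% in the band. The libraries of the band also set the bins, so their own share at 0 is low in part by construction.

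The miRNAs gave the differences that held best between the F3 hrde-1 hypoxia line and normoxia. Of 261 miRNAs tested, 68 (26.1% of those tested) passed, 49 higher (18.8%) and 19 lower (7.28%) in the hypoxia line, and the median log2 fold change was 0.00. With DESeq2 size factors the split was 45 higher and 29 lower. With a weight per group 34 (13%) passed, 27 higher and 7 lower, and with the 4 libraries alone 28 of 237 (11.8%) passed, 18 higher and 10 lower. A total of 23 miRNAs passed in all 3 fits, 17 higher and 6 lower. The same comparison in F3 WT gave 0 of 261 miRNAs by edgeR.

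The muscle miRNA miR-1-3p, a conserved regulator of synaptic function at the neuromuscular junction, had 23030 and 30760 CPM in the hypoxia line, against 58035 and 58974 CPM in normoxia. Both hypoxia-line libraries lay below both normoxia libraries, and the log2 fold change was -1.12 ± 0.23 (SE, edgeR adjusted p = 0.000669, 0.0177 with a weight per group and 0.0262 with the 4 libraries alone). In F3 WT the same miRNA had 75785 and 52297 CPM in the hypoxia line and 64261 and 50253 CPM in normoxia, where the groups overlapped.

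miR-34-5p, the worm member of the miR-34 family that acts in DNA damage and stress responses, had 393 and 429 CPM in the hypoxia line, against 122 and 35.6 CPM in normoxia (log2 fold change 2.39 ± 0.41, edgeR adjusted p = 0.000132). Its passenger strand miR-34-3p had 27.4 and 27.6 CPM in the hypoxia line and was listed at 0 in both normoxia libraries. Both arms of the hairpin were therefore higher in both hypoxia-line libraries, while in F3 WT miR-34-5p had 151 and 398 CPM in the hypoxia line and 498 and 528 CPM in normoxia. The 2 normoxia values of miR-34-5p differ by more than 3-fold, and without the second normoxia library the adjusted p was 0.00318.

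miR-57-5p, which in the worm embryo restrains the posterior Hox gene nob-1, had 9800 and 7968 CPM in the hypoxia line, against 2958 and 2829 CPM in normoxia (log2 fold change 1.62 ± 0.25, edgeR adjusted p = 3.54e-05). The libraries of each group lay close together, and the call held in every alternative run. miR-50-5p had 2537 and 1741 CPM in the hypoxia line, against 586 and 401 CPM in normoxia (log2 fold change 2.12 ± 0.34, adjusted p = 5.38e-05). Both arms of the mir-63 hairpin rose, with miR-63-5p at 200 and 186 CPM in the hypoxia line, against 46.9 and 41.4 CPM in normoxia (log2 fold change 2.13 ± 0.32, adjusted p = 3.26e-05), and miR-63-3p at 7494 and 6377 CPM in the hypoxia line, against 3334 and 2561 CPM in normoxia (log2 fold change 1.23 ± 0.27, adjusted p = 0.00102).

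**Figure D3:**
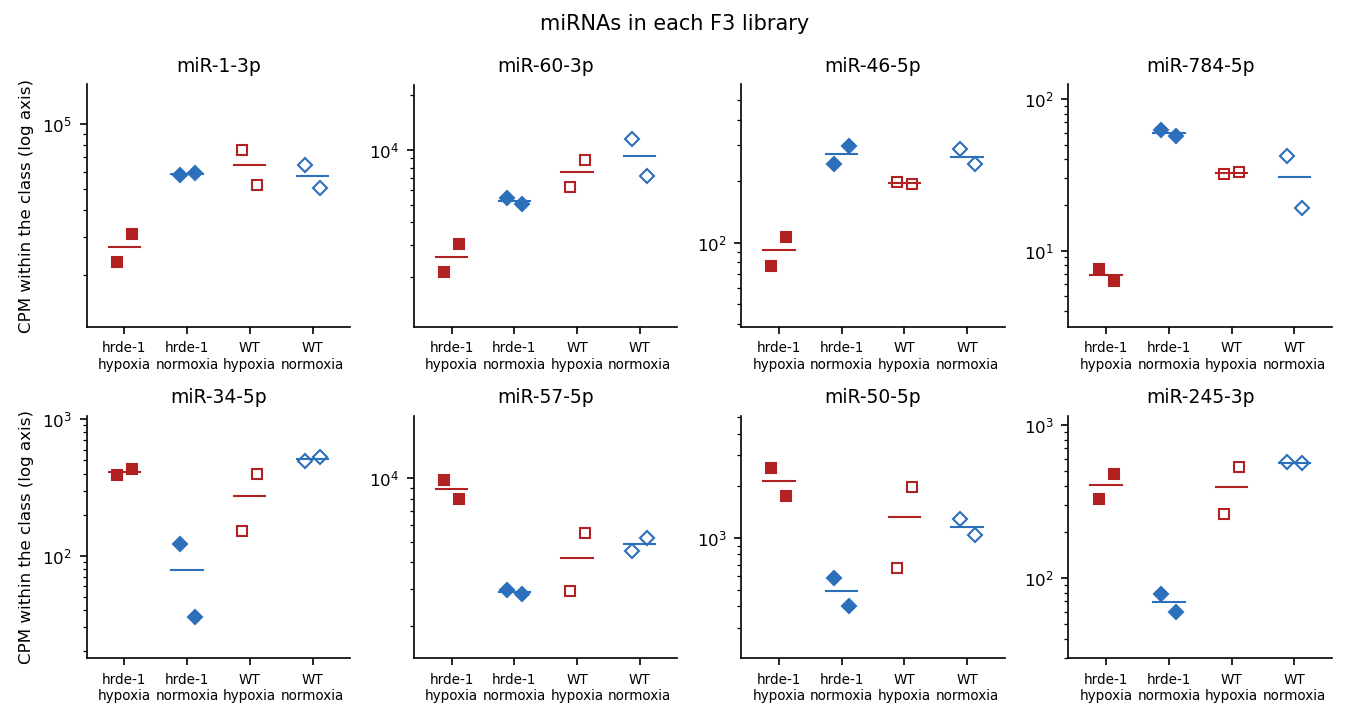
Level of 8 miRNAs (y axis, CPM, log scale) in each of the 8 F3 libraries, with the hypoxia line left of normoxia for hrde-1 and then for WT. Points are libraries and lines are group means. In hrde-1 the 2 groups do not overlap for miR-1-3p, miR-34-5p or miR-57-5p, with miR-57-5p at 9800 and 7968 CPM in the hypoxia line and 2958 and 2829 CPM in normoxia.

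Several less abundant miRNAs rose further. miR-242 had 55.3 and 104 CPM in the hypoxia line, against 10.9 and 6.73 CPM in normoxia, a log2 fold change of 3.18 ± 0.50. miR-239a-5p, whose locus is known from work on worm lifespan and heat stress, had 88.9 and 133 CPM in the hypoxia line, against 21.8 and 6.97 CPM in normoxia (2.97 ± 0.48 on the log2 scale). miR-245-3p had 326 and 477 CPM in the hypoxia line, against 78.9 and 59.5 CPM in normoxia (2.54 ± 0.46), and the edgeR adjusted p-values of these 3 were 4.82e-05, 5.38e-05 and 0.000227 in that order. In each of them the lower hypoxia-line library stood above the higher normoxia library. The rule for naming the largest differences requires this separation, so it adds no support for features named by that rule. miR-244-5p (log2 fold change 2.25 ± 0.50), miR-49-3p (1.75 ± 0.35), miR-231-3p (1.64 ± 0.33) and miR-232-3p (2.12 ± 0.40) also rose, with edgeR adjusted p-values between 0.000344 and 0.00129.

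Fewer miRNAs fell. miR-46-5p had 77.1 and 107 CPM in the hypoxia line, against 243 and 299 CPM in normoxia (log2 fold change -1.56 ± 0.33, edgeR adjusted p = 0.000863). miR-784-5p had 7.57 and 6.27 CPM in the hypoxia line, against 62.3 and 57.3 CPM in normoxia (-3.10 ± 0.62, adjusted p = 0.000562). miR-799 had 49.2 and 37.6 CPM in the hypoxia line, against 204 and 142 CPM in normoxia (-1.99 ± 0.42, adjusted p = 0.000875). All 19 miRNAs called lower had both hypoxia-line libraries below both normoxia libraries, as had 54 of the 261 tested (20.7%). Of the 49 called higher, 43 had groups that did not overlap (26.8% of those tested lay that way). Of the same 49, 16 were listed at 0 in both normoxia libraries, as were 55 of the 261 tested.

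The miRNA families were listed by hairpin, so both arms of a hairpin count as members and need not share the family seed. Among these families the mir-2 list had the largest share of called members. Of its 7 tested members (9 in the table) 5 rose and 0 fell, beside 18.8% higher over all miRNAs, with a median log2 fold change of 1.67 beside 0.00. Of the 5, 2 were listed at 0 in both normoxia libraries, and 2 passed with a weight per group. Its main member miR-2-3p had 394 and 643 CPM in the hypoxia line, against 100 and 225 CPM in normoxia (log2 fold change 1.67 ± 0.44, edgeR adjusted p = 0.00575). The summed level of the family was 597 and 914 CPM in the hypoxia line, against 180 and 306 CPM in normoxia, and in F3 WT it was 350 and 1138 CPM in the hypoxia line and 1111 and 973 CPM in normoxia. Leaving out the first normoxia library raised the adjusted p of miR-2-3p to 0.105.

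The let-7 and lin-4 families time larval development. Of 13 let-7 family members tested 1 rose and 2 fell, a share near the 26.1% of all miRNAs, with a median log2 fold change of 0.39, and the 1 rise was lost with DESeq2 size factors and with the sum of the 4 class totals as library size. let-7-5p itself, which drives the larval to adult transition, had 18526 and 13419 CPM in the hypoxia line and 11439 and 12951 CPM in normoxia and did not pass (log2 fold change 0.39, edgeR adjusted p = 0.286). Its relative miR-84-5p fell, at 11213 and 9258 CPM in the hypoxia line, against 15773 and 16586 CPM in normoxia (log2 fold change -0.66 ± 0.21, adjusted p = 0.0225). The family member miR-793 fell further, at 142 and 94.1 CPM in the hypoxia line, against 283 and 376 CPM in normoxia (-1.48 ± 0.29, adjusted p = 0.000498). lin-4-5p, which acts earlier in larval timing, had 10304 and 11554 CPM in the hypoxia line and 6240 and 7726 CPM in normoxia and did not pass (0.65, adjusted p = 0.0536). miR-237-5p, the other miRNA of the lin-4 family, rose, at 2929 and 4062 CPM in the hypoxia line, against 1529 and 1475 CPM in normoxia (1.22 ± 0.30, adjusted p = 0.00287).

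The mir-35 family is made in oocytes and embryos and is required for embryos to develop. It had 1 of 16 tested members higher and 3 lower, beside 18.8% and 7.28% over all miRNAs. Its median of -0.67 turned to 0.47 without the first normoxia library. Its summed level was 17051 and 11676 CPM in the hypoxia line, against 31467 and 11559 CPM in normoxia, so the groups overlapped and the first normoxia library held the high value. In F3 WT the sum was 54987 and 92300 CPM in the hypoxia line and 111530 and 119840 CPM in normoxia, above all 4 mutant libraries. miR-35-3p, the main member, did not pass between the F3 hrde-1 groups (8026 and 5311 CPM in the hypoxia line, 18221 and 5731 CPM in normoxia; edgeR adjusted p = 0.152). The called members miR-37-3p (log2 fold change -1.82 ± 0.51, adjusted p = 0.0104) and miR-39-3p (-1.13 ± 0.38, adjusted p = 0.0268) no longer passed without the first normoxia library. The remaining one, miR-41-3p, had 4.73 and 0 CPM in the hypoxia line, against 58 and 26.4 CPM in normoxia (-4.04 ± 0.88, adjusted p = 0.00106, 0.0273 with a weight per group and 0.111 with the 4 libraries alone), and its adjusted p was at most 0.0162 with 1 library left out. The part of embryo content in the differences between the groups was not tested.

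Over all miRNAs tested, 18.8% were called higher and 7.28% lower, which are the shares to set beside the lists that follow. Among 17 miRNAs listed for stress and ageing, 6 rose and 2 fell, with a median of -0.16. Of 10 tissue miRNAs, 1 rose and 2 fell, with a median of -0.12. The intestinal miR-60-3p fell, at 2133 and 3041 CPM in the hypoxia line, against 5458 and 5050 CPM in normoxia (log2 fold change -1.02 ± 0.33, edgeR adjusted p = 0.0228, 0.173 with a weight per group). The neuronal miR-124-3p rose, at 143 and 118 CPM in the hypoxia line, against 14.6 and 56.5 CPM in normoxia (1.86, adjusted p = 0.00613, 0.106 with a weight per group). Of the mir-44 family 0 of 7 tested rose and 1 fell (median -0.87), and of the mir-64 family 2 of 8 rose and 0 fell (median 0.39). The mir-58 family had 1 of 13 higher and 2 lower (median 0.37), and the mir-51 family had 1 of 11 higher and 0 lower, with a median of 0.04 that turned to -0.12 or -0.17 with other scalings.

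Of the 5 most abundant miRNAs, only miR-81-3p passed. It belongs to the mir-58 family, the worm relatives of bantam, and had 36532 and 32575 CPM in the hypoxia line, against 93782 and 67069 CPM in normoxia (log2 fold change -1.22 ± 0.33, edgeR adjusted p = 0.00613, 0.0723 with a weight per group). miR-48-5p had 70272 and 75935 CPM in the hypoxia line and 72848 and 75566 CPM in normoxia, a log2 fold change of -0.02 ± 0.18. miR-58a-3p had 91401 and 141380 CPM in the hypoxia line and 76408 and 85641 CPM in normoxia (0.52 ± 0.30, adjusted p = 0.205). miR-80-3p (0.50, adjusted p = 0.0519) and miR-65-5p (0.41, adjusted p = 0.266) did not pass either.

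The snoRNAs differed in both directions. Of 339 tested, 114 (33.6%) passed, 50 higher (14.7%) and 64 lower (18.9%), with a median log2 fold change of -0.28. With a weight per group 12 (3.54%) passed, 5 higher and 7 lower, and with the 4 libraries alone 6 (1.77%) passed, 3 in each direction. The direction of the class as a whole depended on the scaling: with the sum of the 4 class totals as library size, which lets the larger snoRNA share of the hypoxia line count, 124 passed, 108 higher and 16 lower, and the median was 0.64. The values that follow are shares within the snoRNA class.

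Y116A8C.50 (chromosome IV, 17117927 to 17118020, WBcel235) had 666 and 849 CPM in the hypoxia line, against 18.1 and 63.1 CPM in normoxia, a log2 fold change of 4.23 ± 0.59 (edgeR adjusted p = 6.21e-06, 0.0381 with a weight per group). The lower hypoxia-line library stood more than 10-fold above the higher normoxia library, and the normoxia values rest on 2 and 6 counts. In F3 WT the same snoRNA had 175 and 373 CPM in the hypoxia line and 418 and 406 CPM in normoxia. W03C9.9 (chromosome II, 11960898 to 11960959) had 18206 and 20553 CPM in the hypoxia line, against 2925 and 5320 CPM in normoxia (2.23 ± 0.42, adjusted p = 0.000344), and Y53F4B.48 (chromosome II, 15165894 to 15166028) had 14807 and 24324 CPM in the hypoxia line, against 5342 and 3312 CPM in normoxia (2.18 ± 0.36, adjusted p = 0.000111). These last 2 were the snoRNAs called in all 3 fits.

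C27H5.9, the most abundant of the snoRNAs named here, had 39541 and 39449 CPM in the hypoxia line, against 7479 and 13027 CPM in normoxia (log2 fold change 1.95 ± 0.46, edgeR adjusted p = 0.00197). C18A3.12 had 15446 and 22515 CPM in the hypoxia line, against 4564 and 7160 CPM in normoxia (1.70 ± 0.33, adjusted p = 0.000392). Y55F3BR.9 rose as well, at 7771 and 13954 CPM in the hypoxia line, against 3477 and 2986 CPM in normoxia (1.75 ± 0.32). The groups did not overlap for any of these 3. Across the class, the groups did not overlap for all 50 snoRNAs called higher (26.8% of those tested lay that way) and for 57 of the 64 called lower (31.0%).

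W01H2.11 on the X chromosome (4222324 to 4222465) had 17.5 and 17.0 CPM in the hypoxia line, against 389 and 400 CPM in normoxia, a log2 fold change of -4.44 ± 0.77 (edgeR adjusted p = 0.000163, 0.0365 with a weight per group). T21F2.3, also on X, had 3838 and 1928 CPM in the hypoxia line, against 12514 and 8948 CPM in normoxia (-1.90 ± 0.37, adjusted p = 0.000362). Y55F3BL.5 on chromosome IV had 2076 and 1130 CPM in the hypoxia line, against 5578 and 6908 CPM in normoxia (-1.96 ± 0.39, adjusted p = 0.000392). The groups did not overlap for any of these 3, which was a condition for naming W01H2.11 among the largest differences. The hypoxia-line values of W01H2.11 rest on 2 counts in each library. T21B4.20 fell as well, with 35 and 8.49 CPM in the hypoxia line, against 317 and 484 CPM in normoxia (-4.15 ± 0.80, adjusted p = 0.000362). Its hypoxia-line values rest on 4 and 1 counts. B0379.12, C32F10.9 and F43A11.8 fell by 2.51, 2.72 and 2.91 on the log2 scale, but the 2 normoxia libraries of F43A11.8 differed more widely, at 2363 and 620 CPM, against 123 and 272 CPM in the hypoxia line. What each of these snoRNAs guides is not annotated in the files used here.

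**Figure D4:**
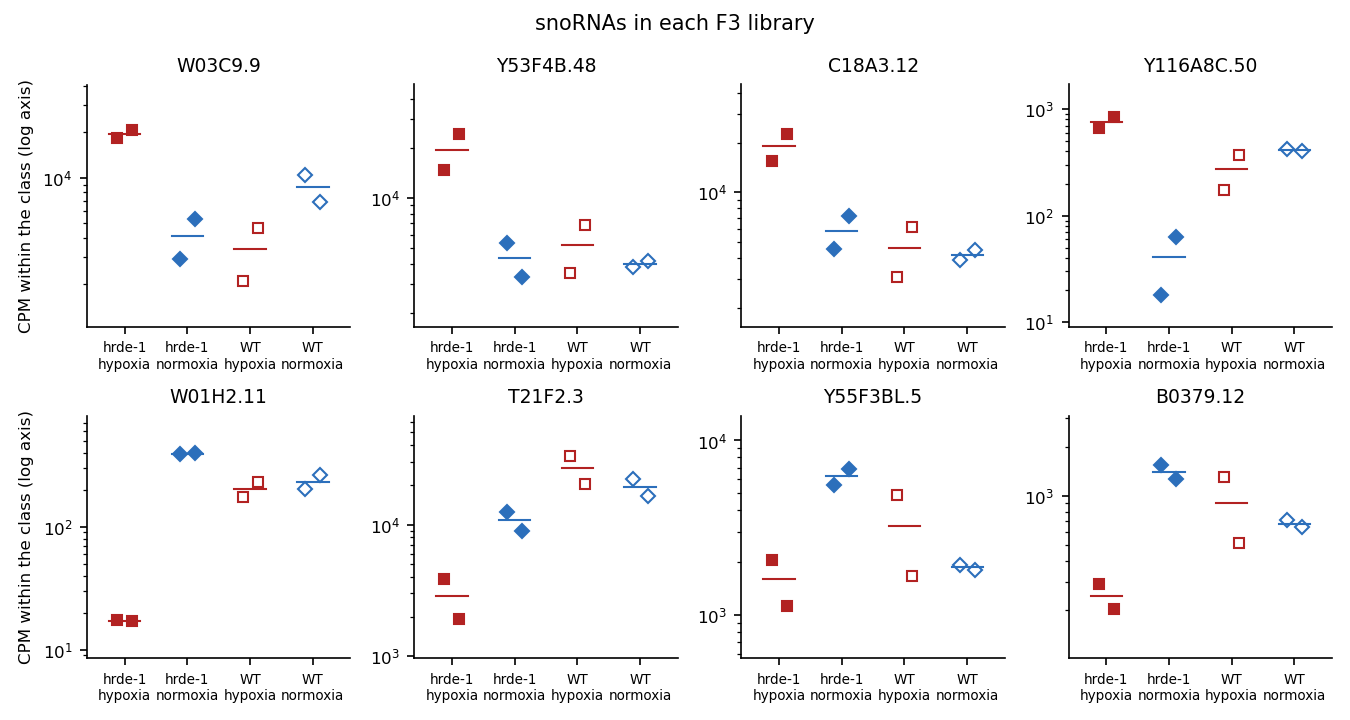
Level of 8 snoRNAs (y axis, CPM within the snoRNA class, log scale) in each of the 8 F3 libraries, with the hypoxia line left of normoxia for hrde-1 and then for WT. Points are libraries and lines are group means. In hrde-1, Y116A8C.50 stands at 666 and 849 CPM in the hypoxia line and at 18.1 and 63.1 CPM in normoxia, and W01H2.11 at 17.5 and 17.0 CPM in the hypoxia line and at 389 and 400 CPM in normoxia.

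The 22G RNAs of 2179 of 10121 genes (21.5%) passed between the F3 hrde-1 groups by edgeR, 1543 higher (15.2%) and 636 lower (6.28%) in the hypoxia line, with a median log2 fold change of 0.09, or 0.01 with genes that lack counts in a group set at their bound (a floor of 3 counts over the 2 libraries of the group). None passed with a weight per group, where 572 had an unadjusted p under 0.05, and 7 of 9463 (0.074%) passed with the 4 libraries alone, 6 higher and 1 lower. The gene counts below therefore rest on the spread of the other groups. Of the 1543 genes called higher, 868 had no count in either normoxia library, as had 2226 of the 10121 tested. Without the F3 hrde-1 libraries, 1465 of the 1543 and 615 of the 636 called lower still passed the filter on low counts. The rest entered the test only through the libraries compared here. The groups did not overlap for 1288 of the 1543 called higher (21.7% of those tested lay that way) and for 486 of the 636 called lower (11.8%). By level in the earlier generations, the share called higher was 14.3% of genes under 5 CPM. Of genes with 5 to 20 CPM in the P0 to F2 hrde-1 libraries, 21% were called higher and 5.67% lower, and of the 360 genes with at least 500 CPM, 3.61% were called higher and 18.9% lower. By chromosome, the share called lower was 10.77% on X (104 of 966 genes) and 4.61% to 6.65% on the autosomes, while the share called higher was 14.66% to 15.97% on every chromosome.

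Genes with well-covered 22G RNAs in all 4 libraries gave moderate differences. ppw-2, an Argonaute of the WAGO group that binds 22G RNAs, had 529 and 395 CPM in the hypoxia line, against 195 and 159 CPM in normoxia (log2 fold change 1.39 ± 0.20, edgeR adjusted p = 3.69e-05). dcr-1, which encodes Dicer, had 117 and 97.7 CPM in the hypoxia line, against 12.5 and 41.5 CPM in normoxia (1.98 ± 0.40, adjusted p = 0.00135). Both genes had their groups apart, and of the 71 small RNA machinery genes tested (74 in the table) 14 rose and 4 fell, 3 of the 14 without a count in normoxia, with a median of 0.14. Over all genes 15.2% were called higher and 6.28% lower. With the sum of the 4 class totals as library size 7 of the list rose, beside 1292 of 10121 genes. rde-2, which works with the exonuclease MUT-7 in making 22G RNAs, was among those that fell, at 21.1 and 23.3 CPM in the hypoxia line, against 47.3 and 114 CPM in normoxia (-1.87 ± 0.50, adjusted p = 0.0109).

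Germ granule genes had 6 of 18 members higher and 0 lower, beside 15.2% higher and 6.28% lower over all genes. Their median log2 fold change was 0.74. Of the 6, 3 had no count in normoxia. With the sum of the 4 class totals as library size 4 were higher and 0 lower, beside 1292 and 351 of 10121 genes. The P granule helicase gene glh-1 had 847 and 915 CPM in the hypoxia line, against 598 and 466 CPM in normoxia (0.73 ± 0.20, edgeR adjusted p = 0.0145). Its relative glh-4 had 409 and 328 CPM in the hypoxia line, against 188 and 103 CPM in normoxia (1.34 ± 0.27, adjusted p = 0.00136). meg-1 and meg-4, which encode scaffold proteins of embryonic P granules, were at 9.14 and 5.81 CPM and at 6.33 and 2.33 CPM in the hypoxia line and had no count in normoxia. The list's summed level was 3366 and 3105 CPM in the hypoxia line, against 2477 and 2028 CPM in normoxia. In F3 WT it was 2563 and 2716 CPM in the hypoxia line and 2265 and 2291 CPM in normoxia.

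Oogenic and maternal genes had 7 of 28 tested members higher and 1 lower, beside 15.2% and 6.28% over all genes. The median was 0.47. With the sum of the 4 class totals as library size 3 were higher and 0 lower, beside 1292 and 351 of 10121 genes. cbd-1, which encodes an eggshell chitin-binding protein, had 263 and 254 CPM in the hypoxia line, against 82.2 and 141 CPM in normoxia (log2 fold change 1.21 ± 0.23, edgeR adjusted p = 0.000796), and skn-1, a maternal transcription factor of endoderm fate and stress defence, had 104 and 70.9 CPM in the hypoxia line, against 33.6 and 47.8 CPM in normoxia (1.11 ± 0.31, adjusted p = 0.014). The 1 lower gene was glp-1, the Notch receptor of germline stem cells, at 38 and 44.2 CPM in the hypoxia line, against 72.9 and 88.7 CPM in normoxia (-0.98 ± 0.26, adjusted p = 0.0091). Spermatogenesis genes had 5 of 40 higher, 4 of them without a count in normoxia, and 1 lower, with a median of 0.19, or 0.13 at the bounds; the fitted median was 3.85 without the second normoxia library and 0.00 without the second hypoxia-line library. spe-47, a sperm gene, rose at 620 and 699 CPM in the hypoxia line, against 409 and 376 CPM in normoxia (0.75 ± 0.21, adjusted p = 0.0144), and the casein kinase gene spe-6 fell at 6.33 and 6.98 CPM, against 60.4 and 56.3 CPM in normoxia (-3.12 ± 0.57, adjusted p = 0.000512).

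Chaperone genes of the DNAJ, CCT and prefoldin families had 12 of 43 higher and 1 lower, beside 15.2% and 6.28% over all genes. Their median was 0.33 beside 0.09 over all genes, and 8 of the 12 had no count in normoxia. dnj-30 had 26 and 26.7 CPM in the hypoxia line and no count in normoxia, which makes it at least 29.5-fold higher against a floor of 3 counts over the 2 normoxia libraries. On the same floor cct-8, a subunit of the cytosolic chaperonin, was at least 59.5-fold higher, with 67.5 and 29.1 CPM in the hypoxia line. In the heat shock list, 4 of 19 rose and 1 fell, with a median of 0.55. F3 WT had 4 of the 19 higher in the hypoxia line and 0 lower, with a median of 0.63. Over all 10121 genes, 7 were called higher in F3 WT and 1543 in F3 hrde-1, so the 2 counts of 4 stand beside unlike shares. Of the 4 genes in F3 WT, 0 were among the 4 of hrde-1. The summed level of the list in F3 WT was 1805 and 1792 CPM in the hypoxia line, against 1160 and 1072 CPM in normoxia, and in F3 hrde-1 it was 2066 and 1996 CPM in the hypoxia line, against 1892 and 1824 CPM in normoxia. hsp-90, the cytosolic HSP90 gene, had 53.4 and 30.2 CPM in the hypoxia line, against 0.623 and 0 CPM in normoxia, where it was covered by 1 count, a ratio of 150 with a 95% counting interval of 26.4 to 5997. F3 WT had 76.3 and 58.5 CPM of hsp-90 in the hypoxia line and 65.5 and 30 CPM in normoxia, so the low values were those of F3 hrde-1 normoxia.

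The adjacent HSP70 genes F44E5.4 and F44E5.5 had 23.2 and 37.2 CPM and 19.7 and 34.9 CPM in the hypoxia line, against 1.87 and 5.68 CPM and 3.11 and 4.55 CPM in normoxia (log2 fold changes 2.95 ± 0.73 and 2.79 ± 0.72, edgeR adjusted p = 0.00626 and 0.0086). They are near-identical copies whose reads the authors' counting may have split, so they are 1 observation rather than 2. Their adjusted p was at least 0.781 with a weight per group, as it was for every 22G gene named here. The same pair did not differ between the responses of hrde-1 and WT in the test of the difference (adjusted p = 0.402 and 0.639).

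Of 48 histone modifier genes tested, 8 rose and 3 fell, beside 15.2% higher and 6.28% lower over all genes. The median log2 fold change was 0.32. With the sum of the 4 class totals as library size 5 rose, beside 1292 of 10121 genes. The 3 that fell were the jmjd-3 genes. jmjd-3.1, a histone H3 lysine 27 demethylase gene on X, had 97.7 and 98.8 CPM in the hypoxia line, against 392 and 229 CPM in normoxia (log2 fold change -1.66 ± 0.30, edgeR adjusted p = 0.00041). Its relatives jmjd-3.2, at 64 and 122 CPM in the hypoxia line, against 321 and 181 CPM in normoxia (-1.45 ± 0.30), and jmjd-3.3, at 7.03 and 0 CPM, against 16.8 and 60.3 CPM in normoxia (-3.19 ± 0.62), fell too, and all 3 had groups that did not overlap. Of 56 histone genes 7 rose and 2 fell (median 0.04, 0.00 at the bounds), but histone gene copies are near-identical and their counts cannot be told apart with certainty. The linker histone gene hil-8 had 1429 and 1043 CPM in the hypoxia line, against 431 and 731 CPM in normoxia (1.09 ± 0.26, adjusted p = 0.00492).

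Among the families of fast-evolving genes that small RNAs target heavily, MATH and BATH domain genes had 3 of 35 higher and 4 lower, with a median of -0.44. The shares over all genes, 15.2% higher and 6.28% lower, stand beside each list of this paragraph. bath-29 had 24.6 and 24.4 CPM in the hypoxia line, against 196 and 127 CPM in normoxia (log2 fold change -2.72 ± 0.49, edgeR adjusted p = 0.000421), and bath-31 had 61.9 and 64 CPM in the hypoxia line, against 284 and 185 CPM in normoxia (-1.90 ± 0.37). F-box genes had 15 of 163 higher and 17 lower, with a median of 0.00. C-type lectin genes had 11 of 40 higher, 8 of them without a count in normoxia, and 4 lower, with a median of 0.87 that came to 0.00 with genes lacking counts at their bound. Of these, clec-140 was well covered, at 207 and 210 CPM in the hypoxia line, against 115 and 96.6 CPM in normoxia (0.98 ± 0.21, adjusted p = 0.00222). Nuclear hormone receptor genes had 12 of 79 higher, 10 of them without a count in normoxia, and 7 lower. nhr-204 was among the 7, at 150 and 43 CPM in the hypoxia line, against 462 and 331 CPM in normoxia (-2.01 ± 0.37, adjusted p = 0.000609).

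The 26G RNA pathway of the Argonaute ERGO-1 feeds 22G RNA production on duplicated genes and long noncoding RNAs. Its list had 0 of 9 higher and 3 lower, beside 15.2% and 6.28% over all genes, with a median of -0.67. T05E12.8 had 4.92 and 2.33 CPM in the hypoxia line, against 70.4 and 46 CPM in normoxia (log2 fold change -3.89 ± 0.64, edgeR adjusted p = 0.000175). K06B9.6 had 889 and 937 CPM in the hypoxia line, against 1357 and 1552 CPM in normoxia (-0.67 ± 0.22, adjusted p = 0.03). E01G4.5 was the last of the 3, at 16.9 and 2.33 CPM in the hypoxia line, against 48.6 and 62.5 CPM in normoxia. In F3 WT, 1 of the 9 was called lower and the median was -1.08. Of 8 genes known as targets of germline nuclear RNAi, 0 rose and 2 fell, with a median of -0.53.

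The lists that follow stand beside shares over all genes of 15.2% called higher and 6.28% called lower. Other lists were the ribosomal proteins (12 of 68 higher, 9 of them without a count in normoxia, and 3 lower, median 0.07, which turned to -0.02 under DESeq2 size factors), collagens and cuticle genes (9 of 51 higher and 1 lower, median 0.26), lipid metabolism (7 of 40 higher and 3 lower, median 0.26), chemoreceptors (5 of 60 higher and 5 lower) and long intergenic RNA loci (6 of 45 higher and 6 lower, median -0.10). rps-11 was 1 of the ribosomal protein genes that fell, at 2.11 and 10.5 CPM in the hypoxia line, against 40.5 and 48.3 CPM in normoxia (log2 fold change -2.94 ± 0.56, edgeR adjusted p = 0.000763). Respiratory chain genes had 5 of 37 higher, all 5 without a count in normoxia, and 0 lower, with a median of 0.47, or 0.44 at the bounds. The fitted median was 4.40 without the first normoxia library and 0.25 without the first hypoxia-line library. cox-19, a factor for cytochrome c oxidase assembly, had 27.4 and 18.6 CPM in the hypoxia line and was at least 27-fold higher.

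Genes of the hypoxia response, downstream of the transcription factor HIF-1 or around it, had 2 of 12 higher and 1 lower. Over all genes the shares were 15.2% and 6.28%. The list median was 0.64, or 0.49 with genes lacking counts at their bound. The fitted median was 2.15 without the first normoxia library and 0.00 without the first hypoxia-line library. The 2 higher ones, swan-1 and the homeodomain-interacting kinase gene hpk-1, had no count in normoxia and at most 10.5 CPM in the hypoxia line. ethe-1, the mitochondrial sulfur dioxygenase gene, fell, at 41.5 and 12.8 CPM in the hypoxia line, against 174 and 107 CPM in normoxia (log2 fold change -2.32 ± 0.45, edgeR adjusted p = 0.000852). The summed level of the list was 169 and 154 CPM in the hypoxia line, against 357 and 217 CPM in normoxia, and both hypoxia-line libraries were below both normoxia libraries while the median over its members was above 0. Markers of other tissues were sparse in 22G RNA: 28 neuronal genes had 4 higher and 3 lower (summed level 3335 and 2677 CPM in the hypoxia line, 4023 and 3020 CPM in normoxia), 12 muscle genes 2 higher and 0 lower (180 and 222 CPM, against 134 and 128 CPM in normoxia) and 15 vitellogenin and intestinal genes 1 higher and 3 lower (48.5 and 72.1 CPM, against 136 and 38.7 CPM in normoxia).

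**Figure D5:**
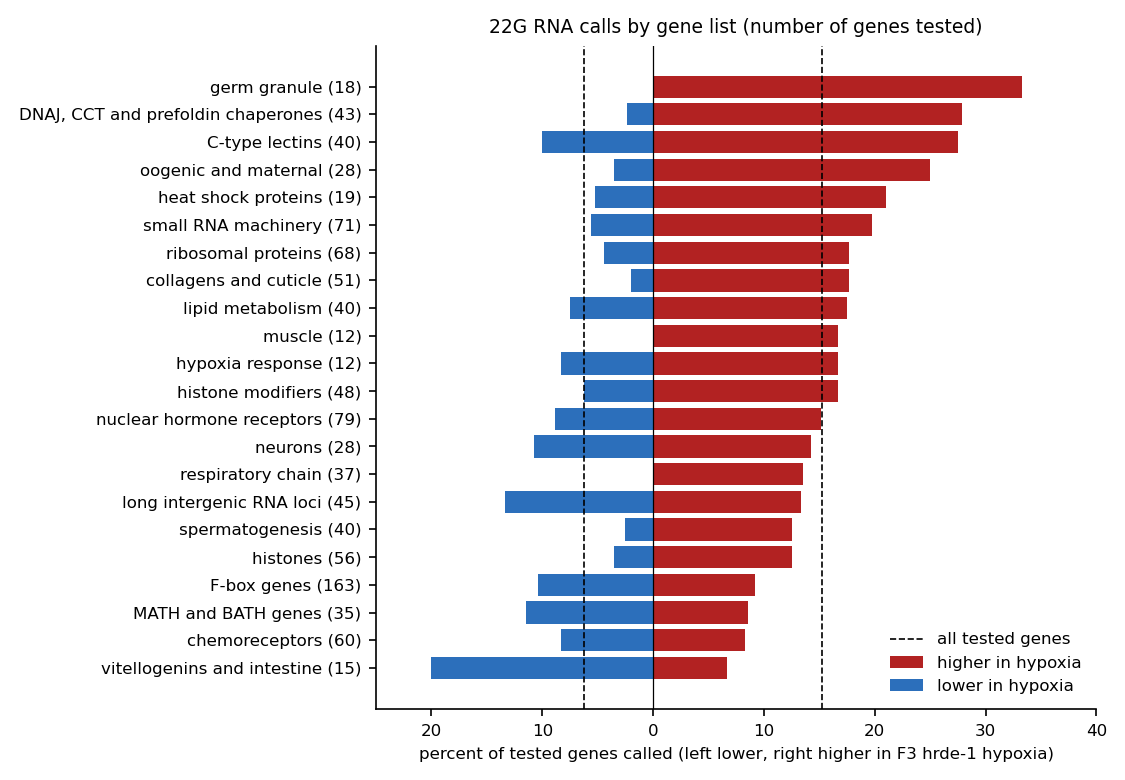
Share of the tested genes of each list (x axis, percent) whose 22G RNAs were called higher (bars to the right) or lower (bars to the left) in the F3 hrde-1 hypoxia line against normoxia, for the 22 lists of at least 12 tested genes (y axis). Dashed lines are the shares over all 10121 genes, 15.2% higher and 6.28% lower. Germ granule genes show 6 of 18 higher, 3 of them without a count in normoxia, and none lower.

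The largest 22G differences were those of genes without a count in 1 of the groups. WBGene00220222, annotated as a snoRNA gene (chromosome IV, 15649207 to 15649360, WBcel235) had 176 and 62.8 CPM in the hypoxia line and no count in normoxia, at least 149-fold higher, and it passed with the 4 libraries alone (edgeR adjusted p = 0.00103). gta-1, a GABA transaminase gene (chromosome IV, 10180660 to 10183865), had 358 and 90.7 CPM in the hypoxia line, against 0 and 0.568 CPM in normoxia, a ratio of 865 with a 95% counting interval of 155 to 34239. C25G4.7 had 598 and 199 CPM in the hypoxia line, against 16.2 and 10.8 CPM in normoxia (log2 fold change 4.88 ± 0.94), and R11E3.2 had 1064 and 666 CPM in the hypoxia line, against 242 and 171 CPM in normoxia (2.07 ± 0.40). These 4, T19B4.9 and the lower gene WBGene00235370 were called both by the fit to all 32 libraries and by the fit to the 4 libraries, while the seventh call of that small fit, ZK783.8, did not pass in the large one (adjusted p = 0.0809). WBGene00235370 (chromosome IV, 4186113 to 4186620) had no count in the hypoxia line, against 93.4 and 55.1 CPM in normoxia, at least 55.8-fold lower.

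On the lower side with counts in all 4 libraries, C40A11.7 had 134 and 137 CPM in the hypoxia line, against 481 and 583 CPM in normoxia (log2 fold change -1.97 ± 0.26, edgeR adjusted p = 1.5e-05, 0.0771 with the 4 libraries alone). glit-1, a gliotactin-related gene on X, had 27.4 and 36.1 CPM in the hypoxia line, against 95.3 and 99.5 CPM in normoxia (-1.63 ± 0.22, adjusted p = 2.11e-05). The 2 libraries of a group lay closest in the hypoxia line for C40A11.7 and in normoxia for glit-1. Y47D3A.21 and the cyclophilin gene cyn-10 had no count in the hypoxia line, against 40.5 and 56.8 CPM and 21.2 and 36.4 CPM in normoxia, and were at least 37.3-fold and at least 22.2-fold lower.

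Of 7978 piRNAs tested, 1701 (21.3%) passed by edgeR, 1298 higher (16.3%) and 403 lower (5.05%) in the hypoxia line, with a median log2 fold change of 0.29. With a weight per group 10 (0.125%) passed, all lower, and with the 4 libraries alone none did, although 503 had an unadjusted p under 0.05. Of the 1298 called higher, 865 were listed at 0 in both normoxia libraries, as were 3271 of the 7978 tested. Of the 403 called lower, 139 were listed at 0 in both hypoxia-line libraries, as were 1777 of the 7978 tested. The groups did not overlap for 1049 of the 1298 called higher (23.4% of those tested lay that way) and for 304 of the 403 called lower (8.9%). Each piRNA comes from its own small locus, and no group of piRNAs by locus was available here, so they are named singly.

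piR-cel-3609 had 319 and 417 CPM in the hypoxia line, against 1819 and 2296 CPM in normoxia (log2 fold change -2.48 ± 0.32, edgeR adjusted p = 4.34e-07, 0.00671 with a weight per group). piR-cel-3863 had 717 and 1108 CPM in the hypoxia line, against 4092 and 3786 CPM in normoxia (-2.11 ± 0.33, adjusted p = 1.07e-05, 0.00756 with a weight per group). piR-cel-5329 had 179 and 291 CPM in the hypoxia line, against 2229 and 1761 CPM in normoxia (-3.09 ± 0.43, adjusted p = 2.27e-06, 0.00756 with a weight per group). All 3 were abundant piRNAs whose 4 values separated clearly by group. piR-cel-1205, piR-cel-2151, piR-cel-5334 and piR-cel-5477 were also lower in both fits, by 2.39, 2.92, 1.89 and 1.91 on the log2 scale.

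Among those with counts in both groups, piR-cel-2479 had 803 and 487 CPM in the hypoxia line, against 75.2 and 52 CPM in normoxia (log2 fold change 3.35 ± 0.38, edgeR adjusted p = 5.41e-08, 0.1 with a weight per group), and piR-cel-4139 had 616 and 478 CPM in the hypoxia line, against 25.1 and 74.9 CPM in normoxia (3.41 ± 0.39, adjusted p = 4.75e-08). piR-cel-6407 had 649 and 521 CPM in the hypoxia line and was listed at 0 in both normoxia libraries, and so was piR-cel-6424, at 423 and 517 CPM in the hypoxia line. Conversely piR-cel-5485 was listed at 0 in both hypoxia-line libraries, against 685 and 144 CPM in normoxia. The locus piR-cel-15882 is split in the table by the length of the read: the form of 21 bases was listed at 0 in the hypoxia line, against 390 and 681 CPM in normoxia, and the form of 20 bases had 297 and 743 CPM in the hypoxia line and was listed at 0 in normoxia. The form of 20 bases was also listed at 0 in F3 WT and on average in P0, F1 and F2 hrde-1. Of these groups only the F3 hrde-1 hypoxia line, where it is high, had counts of it, so its call adds no support. Of the 1298 piRNAs called higher, 1297 passed the filter on low counts without the F3 hrde-1 libraries.

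The difference between the hypoxia line and normoxia was compared with that in F3 WT by the difference of the 2 log2 fold changes in 1 fit. It passed for 1215 of 10121 22G genes (12%), 45 of 261 miRNAs (17.2%), 1291 of 7978 piRNAs (16.2%) and 92 of 339 snoRNAs (27.1%), while the F3 WT comparison on its own gave 35 22G genes (0.346%), 0 miRNAs (0.0%), 10 piRNAs (0.125%) and 6 snoRNAs (1.77%). With a weight per group the difference passed for 0 22G genes (666 with an unadjusted p under 0.05), 22 miRNAs (8.43%), 2 piRNAs (0.0251%) and 11 snoRNAs (3.24%). For miR-34-5p the difference between the responses was 3.30 ± 0.57 on the log2 scale (adjusted p = 0.000314), and for miR-1-3p it was -1.28 ± 0.32 (adjusted p = 0.00588). For miR-57-5p it was 1.83 ± 0.34 (adjusted p = 0.000574), with 2925 and 5508 CPM in the F3 WT hypoxia line and 4547 and 5222 CPM in F3 WT normoxia. Among snoRNAs it was 4.83 ± 0.76 for Y116A8C.50 (adjusted p = 7.9e-05) and 3.6 ± 0.59 for W03C9.9 (adjusted p = 8.71e-05), and among 22G genes 6.29 ± 0.86 for hsp-90 (adjusted p = 5.97e-05). For C40A11.7 it did not pass (-0.96 ± 0.38, adjusted p = 0.0994), and the F3 WT change was -1.01 (adjusted p = 0.111).

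The same difference was set against the mean of those of F1 and F2 hrde-1. It passed for 1214 22G genes (12%), 52 miRNAs (19.9%), 1185 piRNAs (14.9%) and 79 snoRNAs (23.3%), and with a weight per group for 0 22G genes (649 with an unadjusted p under 0.05), 17 miRNAs (6.51%), 0 piRNAs (1198 with an unadjusted p under 0.05) and 5 snoRNAs (1.47%). miR-57-5p differed by 1.74 (adjusted p = 0.000217), miR-784-5p by -3.21, Y116A8C.50 by 4.57 (adjusted p = 1.87e-05) and C40A11.7 by -2.63. These comparisons share the 4 F3 hrde-1 libraries with each other and with the comparison above, so an overlap between them is no separate evidence.

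Each F3 hrde-1 group was also set against its own F1 and F2 groups. F3 hrde-1 normoxia differed from the mean of F1 and F2 hrde-1 normoxia in 1948 22G genes (19.2%), 326 higher and 1622 lower, in 79 miRNAs (30.3%), 20 higher and 59 lower, in 1995 piRNAs (25%), 285 higher and 1710 lower, and in 105 snoRNAs (31.0%), 65 higher and 40 lower. The F3 hrde-1 hypoxia line differed from the mean of F1 and F2 hrde-1 hypoxia in 536 22G genes (5.3%), 70 higher and 466 lower, in 13 miRNAs (4.98%), 5 higher and 8 lower, in 183 piRNAs (2.29%), 15 higher and 168 lower, and in 0 snoRNAs (0.0%) by edgeR, where 47 had an unadjusted p under 0.05 and DESeq2 called 6. The split of these counts depended on the scaling. With DESeq2 size factors normoxia had 511 22G genes higher and 1340 lower and 500 piRNAs higher and 1426 lower, and with the sum of the 4 class totals as library size it had 32 miRNAs higher and 45 lower and 13 snoRNAs higher and 84 lower. With that sum the hypoxia line had 8 miRNAs higher and 6 lower. Which of the 2 groups had the larger change from F1 and F2 differed between features, and a change that did not pass is not shown to be absent. For hsp-90 it was normoxia, with a log2 fold change of -7.33 there and 0.15 in the hypoxia line (adjusted p = 0.889), and for miR-34-5p likewise, with -2.49 in normoxia and -0.33 in the hypoxia line (adjusted p = 0.781). For miR-57-5p both groups changed, by -0.95 in normoxia (adjusted p = 0.00122) and by 0.79 in the hypoxia line (adjusted p = 0.023). For C40A11.7 and jmjd-3.1 the larger change was in the hypoxia line, by -2.38 (adjusted p = 5.52e-06) and -1.70 (adjusted p = 0.000873), with 0.25 (adjusted p = 0.436) and -0.64 (adjusted p = 0.0697) in normoxia. For miR-1-3p the changes were near each other in size, at 0.55 in normoxia (adjusted p = 0.0298) and -0.59 in the hypoxia line (adjusted p = 0.0832). With a weight per group the order of the 2 groups turned for 22G RNAs, with 0 genes called in normoxia (454 with an unadjusted p under 0.05) and 100 in the hypoxia line, and normoxia had 56 miRNAs, 270 piRNAs and 3 snoRNAs, against 9, 103 and 0 in the hypoxia line. The pair of normoxia libraries was the widest of all groups.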

How the data were processed

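Small RNA was sequenced from whole worms in 32 libraries, 2 for each of 16 groups of genotype, generation and oxygen treatment; per the labels' protocols, a pyrophosphohydrolase step was used so that 22G RNAs with a triphosphate could be ligated, and libraries were made with a NEXTflex kit. Per the submitters' processing notes, the tools were FastQC, cutadapt 2.5, featureCounts and edgeR; aligner, build and strand setting are not given in the sources used here. Reads from overlapping genes, antisense pairs included, cannot be told apart. The authors deposited raw counts per feature in 4 class tables, with no normalization seen. For F2 WT normoxia the deposited values are partly fractional, in multiples of 1/3, and were taken as estimated counts and rounded to whole numbers. The 5 summary entries of the 22G table, 32.3% to 35.7% of its counts in the F3 hrde-1 libraries, entered neither library sizes nor tests. Gene symbols and coordinates come from matching the gene IDs to the WBcel235 annotation (46919 of 46932 matched).

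Each class was filtered with filterByExpr (a minimum count of 10), scaled by the trimmed mean of M-values (TMM) and fitted with edgeR's quasi-likelihood test over all 32 libraries with 1 mean per group, and p-values were adjusted by Benjamini-Hochberg over all features tested, with a threshold of 0.05. CPM values are TMM-scaled within a class. Versions were R 4.3.3, edgeR 4.0.16, limma 3.58.1, DESeq2 1.42.0 and Python 3.11.15. The edgeR fit was run on counts simulated with 1 spread per feature for all groups. Of simulated log2 fold changes of 1 and 2 in size, it recovered 6% and 44% for 22G RNAs and 0% and 13% for piRNAs. For miRNAs it recovered 40.9% and 73.8%, and for snoRNAs 32.1% and 87.5%. The simulation did not include the wider F3 hrde-1 pairs, so it cannot show how many calls between them are false. Alternatives were DESeq2 size factors, the sum of the class totals as library size, no filter, the DESeq2 Wald test, a replicate block, fewer libraries, each library left out, and, added after the data were seen, a limma-voom fit with a weight per group; leave-outs of other groups' libraries were added then too. A fold against a group without counts uses a floor of 3 counts over its 2 libraries, and a median at the bounds takes such folds, with 0 where both groups are at or under the floor; the miRNA and piRNA tables list nothing between 0 and 5 apart from F2 WT normoxia, so there a feature is only said to be listed at 0. Intervals and floors cover counting error only.

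Features were named by a rule: the largest differences past the threshold with groups that do not overlap and at least 5 CPM on average, up to 4 called members of each gene list by smallest p, features called in the alternative fits, the 5 most abundant miRNAs, all miRNA family members, and, for the tests against WT and against F1 and F2, those with the smallest p among features with counts in every group involved. That last condition was added after the values were seen. The members and lists were chosen with earlier results of these data known. Replicate numbers were not taken as pairs, since the correlations of same-numbered libraries were not all over 0.1. No sequences are printed.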

Additional observations from a re-analysis of the deposited data

Results flagged for a closer look

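Every item here was singled out because a test of the difference between 2 responses passed the edgeR threshold; a response is the log2 fold change of the hypoxia line against normoxia. Between the F3 responses of hrde-1 and WT, 1215 22G genes, 45 miRNAs, 1291 piRNAs and 92 snoRNAs differed. Between the F3 response of hrde-1 and the mean of its F1 and F2 responses, 1214 22G genes, 52 miRNAs, 1185 piRNAs and 79 snoRNAs differed. These tests share the 4 F3 hrde-1 libraries, and the wide spread of the F3 hrde-1 pairs moves with all of them; its part was not tested.

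The differences of the hrde-1 from the WT response at F3, on the log2 scale, were as follows for 22G RNAs. The hexokinase gene hxk-3 differed by 7.05 and Y81B9A.1 by 5.77, while F28E10.1 differed by -5.10 and F31E3.12 by -6.46. Among miRNAs, miR-34-5p differed by 3.30, miR-232-3p by 3.28 and miR-242 by 3.70, with miR-1-3p at -1.28, miR-81-3p at -1.93 and miR-784-5p at -3.18. Among piRNAs, piR-cel-2479 differed by 3.75 and piR-cel-88 by -4.83. Among snoRNAs, Y116A8C.50 differed by 4.83 and W03C9.9 by 3.6, with Y55F3BL.5 at -2.76 and T21B4.20 at -6.0.

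The differences of the F3 response of hrde-1 from its F1 and F2 responses, on the log2 scale, were 7.47 for hsp-90 and 7.36 for pde-12 among 22G genes, with C40A11.7 at -2.63 and glit-1 at -2.05. Among miRNAs, miR-50-5p differed by 2.07, miR-57-5p by 1.74 and miR-63-5p by 2.33, with miR-46-5p at -1.97, miR-784-5p at -3.21 and miR-793 at -1.65. Among piRNAs, piR-cel-2479 differed by 3.81 and piR-cel-3609 by -2.42. Among snoRNAs, Y116A8C.50 differed by 4.57 and Y53F4B.48 by 2.14, with T21B4.20 at -5.13 and Y71G10AR.5 at -3.24. hsp-90, pde-12 and hxk-3 were covered by 1 count in F3 hrde-1 normoxia and Y81B9A.1 by 2, so the size of their differences depends on the prior count of the fit. Low counts also underlie T21B4.20, with 4 and 1 in the F3 hrde-1 hypoxia line, and Y116A8C.50, with 2 and 6 in F3 hrde-1 normoxia.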

How the results depend on the processing

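The counts of features called moved with how the spread was estimated. With the 4 libraries alone, 7 22G genes, 28 miRNAs, 0 piRNAs and 6 snoRNAs were called between the F3 hrde-1 hypoxia line and normoxia; with the 16 hrde-1 libraries, 792 22G genes and 1058 piRNAs; with a weight per group, 0 22G genes, 34 miRNAs, 10 piRNAs and 12 snoRNAs. The difference from the WT response was called for 4 22G genes, 2 miRNAs, 15 piRNAs and 14 snoRNAs with only the libraries compared, and for 0, 22, 2 and 11 with a weight per group. The difference from the F1 and F2 responses was called for 48 22G genes, 30 miRNAs, 414 piRNAs and 39 snoRNAs with only the libraries compared, and for 0, 17, 0 and 5 with a weight per group. For F3 hrde-1 normoxia against F1 and F2, a weight per group gave 0 22G genes, 270 piRNAs and 3 snoRNAs; for the hypoxia line it gave 100 22G genes and 103 piRNAs.

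The sum of the 4 class totals as library size gave 787 22G genes for the difference from WT, 1281 for normoxia against F1 and F2 and 11 for the hypoxia line against F1 and F2, with 361 piRNAs for the last. DESeq2 gave 1973 piRNAs for the difference from WT, 1862 piRNAs for that from F1 and F2, and for the hypoxia line against F1 and F2 836 22G genes, 28 miRNAs, 717 piRNAs and 6 snoRNAs, where DESeq2 size factors in edgeR gave 354 22G genes and no filter gave 24 miRNAs. The 22G share of the class totals was 0.85 percentage points higher in the hypoxia line, and -6.273 points with miRNA left out of the denominator (exact permutation p = 0.6667). Between the F3 hrde-1 groups the sum as library size moved the median log2 fold change of all 22G genes to 0.24, against 0.09 with TMM, and that of snoRNAs to 0.64, against -0.28; DESeq2 size factors moved the snoRNA median to -0.12. With the sum as library size 9 of 163 F-box genes and 1 of 45 long intergenic RNA loci were lower, beside 351 of all 10121 genes. With DESeq2 size factors 744 of the 10121 genes were lower. They included 7 of 35 MATH and BATH genes, 5 of 48 histone modifiers, 5 of 68 ribosomal protein genes and 3 of 19 heat shock genes. With the same factors 4 of 17 stress and ageing miRNAs were lower, beside 29 of 261 miRNAs. With TMM 636 genes and 19 miRNAs were lower. The cause of these changes was not tested.

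Leaving out 1 library at a time gave, between the F3 hrde-1 groups, 1572 to 3547 22G genes (the highest without the first normoxia library), 50 to 69 miRNAs, 1349 to 2042 piRNAs and 50 to 109 snoRNAs (the lowest without the second hypoxia-line library). For the difference from WT the ranges were 793 to 3011, 27 to 72, 949 to 1885 and 42 to 111 in the same order of classes, and for that from F1 and F2 945 to 2828, 34 to 55, 966 to 1824 and 24 to 102. For normoxia against F1 and F2 they were 2075 to 3959, 68 to 82, 1742 to 2484 and 70 to 109, and for the hypoxia line 245 to 1157, 0 to 23, 138 to 505 and 0 to 11. Medians of lists that changed sign ran from -0.22 to 0.55 (mir-51 family), -0.24 to 0.37 (tissue miRNAs), -0.53 to 0.80 (stress and ageing miRNAs), -0.51 to 0.02 (MATH and BATH genes), -0.46 to 0.09 (long intergenic RNA loci) and -0.04 to 0.96 (ribosomal proteins). The medians of C-type lectins ran from 0.00 to 2.59, of collagens from 0.00 to 0.85 and of lipid genes from 0.00 to 0.84.

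The replicate numbers were not taken as pairs, since not every correlation of same-numbered deviations was over 0.1. For F3 hrde-1 it was 0.0305 for 22G RNAs, 0.0573 for miRNAs, 0.0176 for piRNAs and 0.1722 for snoRNAs. Over the 8 generations and genotypes it ran from -0.0255 to 0.4007 for 22G RNAs, highest in F1 hrde-1 and P0 WT, from -0.2725 to 0.0732 for miRNAs, from -0.3541 to 0.1713 for piRNAs and from -0.3426 to 0.1722 for snoRNAs. With the replicate block, 1561 22G genes, 60 miRNAs, 1303 piRNAs and 100 snoRNAs were called between the F3 hrde-1 groups, 806 22G genes for the difference from WT and 767 for that from F1 and F2. The F3 hrde-1 libraries held 94194 to 148348 snoRNA counts and 215629 to 358765 piRNA counts.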

Other observations

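Some small RNAs differed from F1 and F2 hrde-1 in both F3 groups in the same direction while the F3 groups did not differ from each other past the threshold. They were chosen after their values were seen. miR-243-3p, which is known to be loaded into the Argonaute RDE-1 and to trigger 22G RNA production on its target, had 661 and 723 CPM in the F3 hypoxia line and 517 and 753 CPM in F3 normoxia. Its log2 fold change against the mean of F1 and F2 was 1.30 in the hypoxia line (edgeR adjusted p = 0.00879) and 0.95 in normoxia (adjusted p = 0.00666), and between the F3 groups it was 0.12 (adjusted p = 0.858). miR-54-5p was higher by 1.38 in the hypoxia line (adjusted p = 0.0285) and by 1.58 in normoxia (adjusted p = 0.00135). The embryonic miR-35-3p was at -1.49 in the hypoxia line (adjusted p = 0.0285) and at -1.34 in normoxia (adjusted p = 0.0116).

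piR-cel-15748 had 914 and 1868 CPM in the F3 hypoxia line and 914 and 880 CPM in F3 normoxia, a log2 fold change of 1.75 in the hypoxia line (adjusted p = 0.00227) and of 1.01 in normoxia (adjusted p = 0.0217) against F1 and F2. The second hypoxia-line library was the highest of the 4.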
